A study of Mus musculus with 180 samples.

Results

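The 5 genes described here are *Il1a*, *Il1b*, *Il1rn* and *Il18* of the IL-1 family together with *Il6*. They were taken by their symbols from the 45070 genes of the table, and all 5 were among the 12714 genes that were tested (those with a normalized value of 10 or more on average). The samples are wild type bone marrow-derived macrophages (BMDMs), grown in culture from the marrow of young male C57/BL6 mice. Every sample was stimulated for 2 h with LPS at 10 ng/ml, after 1 h of pre-treatment with either the vehicle DMSO or 1 of 58 clinical kinase inhibitors (CKIs). There were 3 samples for each CKI and 6 for DMSO, in 2 sets of 3. The labels do not say which CKIs were run with which set, so all 6 DMSO samples served as 1 reference; with either set alone 5 of the 12 changes described here were called. No sample without LPS was analysed here, so the values show how the CKIs moved these transcripts around their LPS-induced levels and not the induction itself. Each CKI was used at a single concentration, which the methods set from its potency towards a chosen target. The concentrations therefore differ between CKIs, and CKIs of one target class are placed side by side without a test between them.

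LPS activates the receptor TLR4, which signals through the adaptor MYD88, IRAK kinases and TRAF6 to the IKK and MAP kinase cascades. IL-1α and IL-1β, encoded by *Il1a* and *Il1b*, are inflammatory cytokines that share a receptor, and *Il1rn* encodes the secreted antagonist that occupies this receptor without activating it. IL-1β and IL-18 are made as precursors that caspase-1 cleaves in inflammasomes, so a transcript level is not a level of active cytokine. IL-6 belongs to another family, signals through gp130, and is transcribed in macrophages later than the earliest response genes.

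*Il1a* lies on the minus strand of chromosome 2 at 129299610 to 129309972 and *Il1b* on the same strand at 129364578 to 129371139 (mm10). *Il1rn* is on the plus strand of the same chromosome at 24336860 to 24351491, *Il18* on chromosome 9 at 50554700 to 50581841 and *Il6* on chromosome 5 at 30013114 to 30019975. The 250 bases before the start of the 4 members that changed with any CKI are printed because these genes did not move as a unit. They come from RefSeq on GRCm38.p6, which is the mm10 assembly, read 5′ to 3′ on the strand of the gene. The windows are chr2:129309973-129310222 (minus strand) for *Il1a*, chr2:129371140-129371389 (minus strand) for *Il1b*, chr2:24336610-24336859 (plus strand) for *Il1rn* and chr5:30012864-30013113 (plus strand) for *Il6*. Capitals mark every match, on either strand, to 6 short motifs that were searched. The NF-κB-type motif was GGGA and CC with any 4 bases between them. The C/EBP-type motif, bound by a family of factors active in myeloid cells, was TTGCNNAA. For the AP-1 family of JUN and FOS proteins TGANTCA was searched, and for factors that bind cyclic AMP response elements TGACGTCA. The ETS-type motif of PU.1, which directs macrophage development, was GAGGAAGT. The last was the TATA-type motif of core promoters, TATAAA.
Il1a: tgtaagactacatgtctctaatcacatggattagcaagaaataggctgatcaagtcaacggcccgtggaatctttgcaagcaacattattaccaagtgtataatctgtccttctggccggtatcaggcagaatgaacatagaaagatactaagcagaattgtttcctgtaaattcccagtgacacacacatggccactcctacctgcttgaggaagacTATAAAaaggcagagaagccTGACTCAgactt
Il1b: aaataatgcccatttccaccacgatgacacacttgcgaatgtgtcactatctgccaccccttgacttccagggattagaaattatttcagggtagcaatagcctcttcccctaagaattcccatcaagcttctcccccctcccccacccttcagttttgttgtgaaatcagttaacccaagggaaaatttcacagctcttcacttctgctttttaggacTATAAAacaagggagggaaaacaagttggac
Il1rn: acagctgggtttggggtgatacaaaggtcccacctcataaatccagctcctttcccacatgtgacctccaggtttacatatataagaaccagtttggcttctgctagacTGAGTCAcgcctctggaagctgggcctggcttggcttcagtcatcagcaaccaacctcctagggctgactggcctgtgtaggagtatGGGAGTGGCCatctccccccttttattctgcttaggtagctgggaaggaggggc
Il6: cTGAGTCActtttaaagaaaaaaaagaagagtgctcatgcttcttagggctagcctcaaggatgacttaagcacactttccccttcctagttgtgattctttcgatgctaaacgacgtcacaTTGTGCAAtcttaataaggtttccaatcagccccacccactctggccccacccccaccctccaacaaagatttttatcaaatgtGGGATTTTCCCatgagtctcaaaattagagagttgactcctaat
The windows of *Il1a* and *Il1b* both hold TATAAA, 32 and 31 bases before the start, and that of *Il1a* also holds an AP-1-type match 12 bases before it. The printed window of *Il1rn* has an NF-κB-type match 54 bases and an AP-1-type match 141 bases before the start, and no TATAAA. RefSeq lists 3 windows for *Il1rn*, and the matches given are only those at the start of the gene used here. *Il6* has 2 overlapping NF-κB-type matches from 44 bases before its start, a C/EBP-type match and, at the far end, an AP-1-type match. The same motifs are common: of the 32851 promoter windows of this length, 17.6% hold the NF-κB-type, 12.4% the TATA-type, 9.56% the C/EBP-type, 6.75% the AP-1-type, 2.44% the PU.1-type and 1.55% the CRE-type letters. A missing match says only that these exact letters are not in the window.

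The members differed widely in level under LPS and DMSO. Per kilobase of transcript, which allows genes to be compared, *Il1b* reached a normalized value of 3003 ± 1070 (SD, n = 6) and *Il1rn* 2089 ± 781. *Il6* stood at 467 ± 141, *Il1a* at 189 ± 74.1 and *Il18* at 68.8 ± 21.8. *Il1b* was thus at or above 97.5% of the tested genes, whereas *Il18* was near the middle, at 52.9%. The ranges of *Il1b* and *Il1rn* overlapped between samples, but within each of the 6 DMSO samples *Il1b* was higher per kilobase than *Il1rn*. All remaining values are normalized values per gene, not divided by length.

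The 6 DMSO samples were themselves spread out. *Il1b* ranged from 2842 to 6751 with a median of 3731.5, *Il1rn* from 3777 to 8821 with a median of 4874, and *Il1a* from 237 to 627 with a median of 350.5. The range was 337 to 757 for *Il6*, with a median of 568.5, and 59 to 134 for *Il18*, with a median of 87. For every member the highest DMSO value belonged to replicate 1 of set 2, and in the whole series the samples numbered 1 lay above the mean of their condition by 0.25 (*Il18*) to 0.45 (*Il1rn*) on the log2 scale, on average. The SD within a condition was 0.58 for *Il1a*, 0.59 for *Il1b*, 0.49 for *Il1rn*, 0.43 for *Il18* and 0.62 for *Il6* in log2 units, against a median of 0.31 over the tested genes. These transcripts were therefore noisier than most genes, which sets the size of change that 3 samples can resolve. The total of normalized values was 9477340 to 12273349 per sample, and the markers of the labelled cell type were present (all 9 macrophage genes tested, with a summed value of 85703 to 250618 over the series), while none of the B cell, T or NK cell, mast cell and erythroid markers passed the filter. Of the other lists 6 of 8 neutrophil, 3 of 6 dendritic cell, 3 of 4 osteoclast and 1 of 4 stromal markers passed it. In bulk samples fewer cells that express a gene and less RNA per cell cannot be told apart.

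Across the 59 conditions 4 of the 5 members varied beyond this spread. In limma's F test for any difference from DMSO, the adjusted p was 1.03e-06 for *Il1b*, 4.1e-05 for *Il1a*, 0.000768 for *Il1rn* and 0.00783 for *Il6*. *Il18* did not pass, with an adjusted p of 0.807. Such a result was common, since 48.6% of all tested genes passed the same test. The SD between the CKI means was nevertheless large for these genes: 0.59 for *Il1b*, 0.53 for *Il1a*, 0.48 for *Il6* and 0.41 for *Il1rn* in log2 units, but 0.23 for *Il18*, where the median over genes was 0.23. Mean *Il1b* ran from 1178 with Afatinib to 9726 with Lapatinib and mean *Il1rn* from 2760 with PH797804 to 17319 with Omipalisib. For *Il6* the means ran from 202.7 to 1086 and for *Il1a* from 160.3 to 1010. Most CKIs lay near the vehicle, with a mean log2 level within 1 DMSO SD of the DMSO mean. This held with 38 CKIs for *Il1a*, 40 for *Il1b*, 41 for *Il6*, 52 for *Il1rn* and 54 for *Il18*. The count describes distance and is not a test of which CKIs differed.

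**Figure D1:**
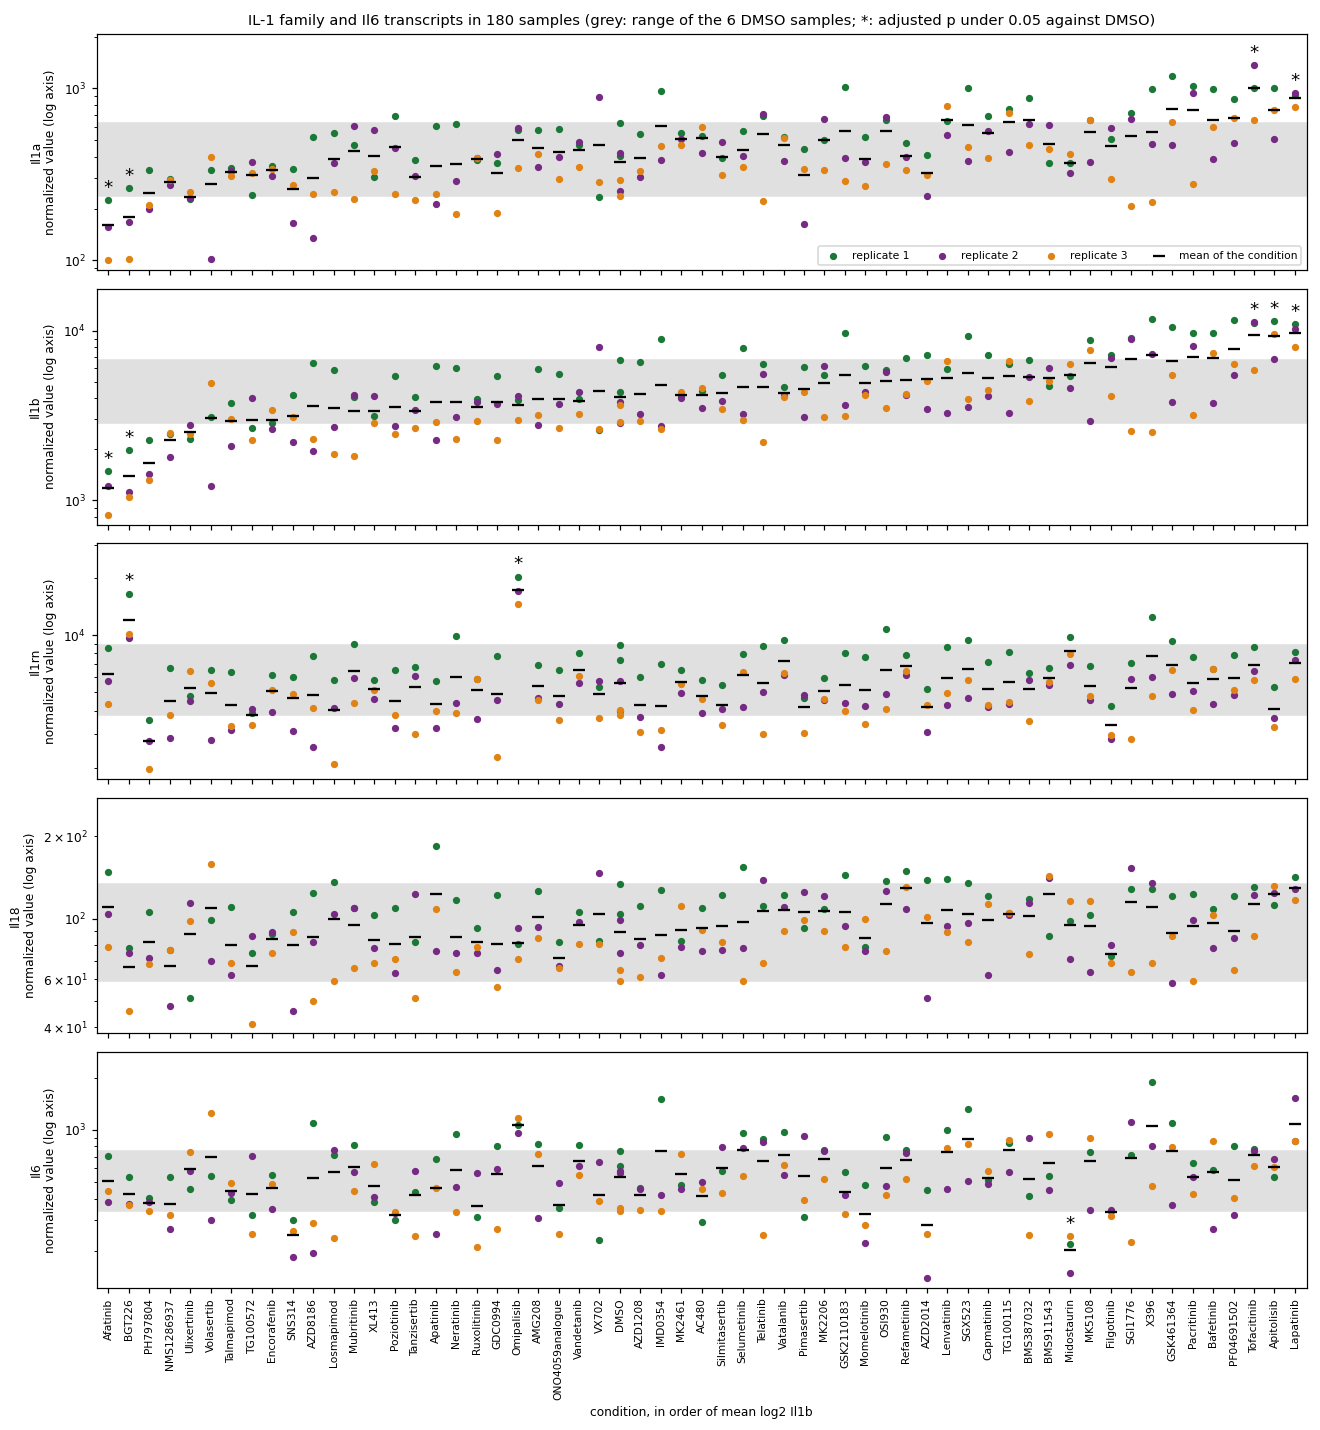
Normalized values (log axis) of the 5 transcripts in all 180 samples, with the 59 conditions in the order of mean log2 *Il1b*. Points are samples coloured by replicate number, black bars are means, the grey band is the range of the 6 DMSO samples, and asterisks mark an adjusted p under 0.05: for *Il1b* with 2 CKIs at the low end and 3 at the high end, for *Il1rn* with BGT226 and Omipalisib, for *Il6* with Midostaurin and for *Il18* with none.

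Of the 290 pairs of a member and a CKI, 12 passed an adjusted p of 0.05 (limma on log2(normalized value + 1), adjusted over all tested genes within each CKI). This is 4.14% of the pairs, and over all tested genes and CKIs 4.18% of tests passed, so the members were not called more often than genes in general. *Il1b* changed with 5 CKIs (3 higher, 2 lower), *Il1a* with 4 (2 higher, 2 lower), *Il1rn* with 2 (both higher) and *Il6* with 1 (lower). No CKI changed *Il18*, for which log2 fold changes lay between -0.41 and 0.58, and no CKI gave an unadjusted p under 0.05 for it. The calls fell on 7 CKIs: 3 members with BGT226, 2 each with Afatinib, Lapatinib and Tofacitinib, and 1 each with Omipalisib, Apitolisib and Midostaurin. Blocking on the replicate number gave counts of 7 for *Il1a*, 7 for *Il1b*, 5 for *Il1rn*, 4 for *Il6* and 0 for *Il18*, or 7.93% of the pairs where 7.68% of all tests passed.

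**Figure D2:**
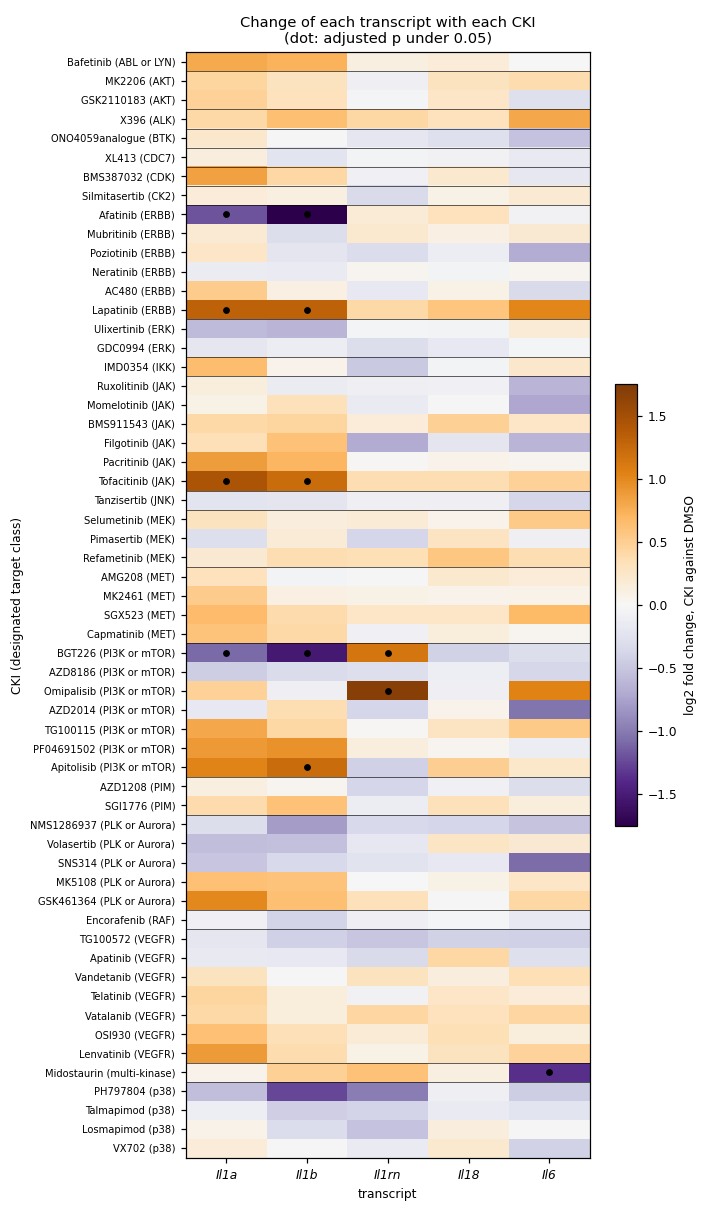
Log2 fold change against DMSO of each transcript (columns) with each of the 58 CKIs (rows, grouped by designated target class), from orange (higher) to purple (lower), with a dot for an adjusted p under 0.05. *Il1a* and *Il1b* were low with Afatinib and BGT226 and high with Lapatinib and Tofacitinib, and *Il1rn* was high with BGT226 and Omipalisib.

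The lowest levels of both IL-1 agonist genes were measured with Afatinib, an inhibitor of the EGFR/ERBB receptor family, and with BGT226, an inhibitor of PI3K and mTOR. *Il1b* was 1496, 1215 and 822 in the 3 Afatinib samples. All lay below the lowest DMSO sample, and *Il1b* fell to 0.296-fold (log2 fold change -1.76 ± 0.41 SE, adjusted p = 0.000733). With BGT226 the values were 1994, 1128 and 1052, again below every DMSO sample, and the transcript fell to 0.345-fold (log2 fold change -1.54 ± 0.41, adjusted p = 0.00178). *Il1a* was 225, 156 and 100 with Afatinib (log2 fold change -1.21 ± 0.41, adjusted p = 0.0217) and 264, 168 and 102 with BGT226 (log2 fold change -1.09 ± 0.41, adjusted p = 0.0311). The Afatinib samples were all below the DMSO range, while the highest BGT226 sample was within it. The osteoclast markers were summed at 120 to 156 with Afatinib against 67 to 112 in DMSO (1 of 3 tested was called higher) and the dendritic cell markers at 71 to 103 against 100 to 173 (1 of 3 called lower), and 1 of 9 macrophage markers was called lower; their part in the falls was not tested. Changes were frequent with both CKIs, which moved 21.9% (Afatinib) and 30.4% (BGT226) of all tested genes.

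The antagonist gene went the other way with BGT226. *Il1rn* was 16399, 9646 and 10180, above all DMSO samples, and rose 2.20-fold (log2 fold change 1.14 ± 0.34, adjusted p = 0.00534). The largest rise of any member was that of *Il1rn* with Omipalisib, another PI3K and mTOR inhibitor, with which 25.7% of tested genes changed. Its values were 20349, 17060 and 14548, all above the highest DMSO sample of 8821, and the rise was 3.23-fold (log2 fold change 1.69 ± 0.34, adjusted p = 3.9e-05). *Il1b* with Omipalisib was 3899, 4114 and 2977, inside the DMSO range (log2 fold change -0.09 ± 0.41, adjusted p = 0.89), and *Il1rn* with Afatinib was 8561, 5706 and 4356, also inside it (log2 fold change 0.17 ± 0.34, adjusted p = 0.763). Of the 3 CKIs, BGT226 thus had both a called fall of *Il1b* and a called rise of *Il1rn*, Afatinib only the fall and Omipalisib only the rise. The calls of *Il1b* with Afatinib and BGT226 and of *Il1rn* with BGT226 and Omipalisib were kept under every alternative fit that was run, the highest adjusted p being 0.0331. The summed value of 6 dendritic cell markers, which was 100 to 173 in DMSO, was 167 to 194 with BGT226 and 191 to 316 with Omipalisib, and that of 4 osteoclast markers was 206 to 292 and 213 to 245 against 67 to 112. Of the 9 macrophage markers 2 rose with each of these CKIs, and of the 6 neutrophil markers tested 2 fell with each (median log2 fold changes of -0.31 and -0.53). The part of these markers in the results was not tested.

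Both IL-1 agonist genes rose with Lapatinib, which like Afatinib is directed at EGFR and ERBB2, and with Tofacitinib, a JAK inhibitor. *Il1b* was 10957, 10205 and 8016 with Lapatinib, above all DMSO samples, and rose 2.49-fold (log2 fold change 1.32 ± 0.41, adjusted p = 0.0165). *Il1a* was 911, 945 and 785 and rose 2.49-fold as well (log2 fold change 1.31 ± 0.41, adjusted p = 0.0159). With Tofacitinib *Il1a* was 1001, 1373 and 656, above all DMSO samples (log2 fold change 1.45 ± 0.41, adjusted p = 0.0213). *Il1b* was 11122, 11342 and 5898, with the third sample inside the DMSO range (log2 fold change 1.23 ± 0.41, adjusted p = 0.043). A rise of *Il1b* alone was called with Apitolisib, a PI3K and mTOR inhibitor, in which it was 11374, 6806 and 9636 (log2 fold change 1.23 ± 0.41, adjusted p = 0.0323). All 3 of these samples were above the DMSO range, although one of them only just. The share of all tested genes that changed was 23.3% with Lapatinib, 9.88% with Tofacitinib and 15.9% with Apitolisib.

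These 3 CKIs also had a high share of mitochondrially encoded transcripts, 1.92% to 3.71% with Lapatinib, 1.35% to 4.01% with Tofacitinib and 1.49% to 4.04% with Apitolisib, against 0.759% to 1.94% in DMSO. When this share was added to the fit together with the replicate block, the adjusted p rose to 0.135 and 0.0946 for *Il1a* and *Il1b* with Lapatinib, 0.0969 and 0.204 with Tofacitinib and 0.336 for *Il1b* with Apitolisib. The estimate could shrink too: the log2 fold change of *Il1a* with Lapatinib went from 1.31 to 0.59 ± 0.25. The falls with Afatinib and BGT226 and the rises of *Il1rn* were kept in that fit. It called *Il1a* and *Il1b* lower with 2 further CKIs, in which they were not called otherwise. With the MEK inhibitor Pimasertib (mitochondrial share 3.24% to 4.29%) *Il1a* was 444, 164 and 338 and *Il1b* 6098, 3123 and 4373. Their log2 fold changes of -0.28 and 0.17 became -1.41 ± 0.26 and -0.99 ± 0.23 (limma adjusted p = 7.72e-05 and 0.00345), so that *Il1b* changed its sign. With the PLK inhibitor Volasertib (share 0.790% to 3.57%) *Il1a* was 334, 102 and 399 and *Il1b* 3116, 1212 and 4891. Here -0.56 and -0.55 became -0.99 ± 0.24 and -0.99 ± 0.21 (limma adjusted p = 0.00599 and 0.00117). The summed value of 8 neutrophil markers was likewise 1255 to 1460 with Lapatinib, 618 to 1819 with Tofacitinib and 807 to 1308 with Apitolisib, against 267 to 932 in DMSO. Of the 6 of these markers that were tested, 4 rose with Lapatinib and 1 each with Tofacitinib and Apitolisib. The highest value in any of the 180 samples was 798 for *S100a8*, 606 for *Ngp* and 579 for *S100a9*. It was 91 for *Camp*, 52 for *Elane*, 48 for *Mpo*, 23 for *Retnlg* and 5 for *Ly6g*. The macrophage markers were summed at 198264 to 240512 with Lapatinib against 99774 to 216546 in DMSO. With Tofacitinib their sum was 150719 to 239468 and with Apitolisib 178735 to 241064. Of these 9 markers 3 rose with Lapatinib and 1 with Apitolisib, while with Tofacitinib 1 rose and 1 fell. Osteoclast markers were summed at 109 to 130 with Lapatinib, 121 to 150 with Tofacitinib and 97 to 139 with Apitolisib. The DMSO sum was 67 to 112, and none of the 3 tested was called. Of 3 dendritic cell markers tested 1 was called higher with Tofacitinib. The part of these markers in the rises was not tested.

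*Il6* fell with Midostaurin, a multi-kinase inhibitor, and in the fit without a block with no other CKI. Its values were 218, 148 and 242, all below the DMSO range, and it fell to 0.389-fold (log2 fold change -1.36 ± 0.43, adjusted p = 0.0471). Midostaurin changed 4.56% of the tested genes. The osteoclast markers were summed at 125 to 156 with it, above the DMSO range of 67 to 112, although none of the 3 tested was called; their part in the fall was not tested. The IL-1 genes did not pass with it: *Il1b* was 5430, 4623 and 6365 (log2 fold change 0.49 ± 0.41, adjusted p = 0.596) and *Il1a* 370, 324 and 417 (log2 fold change 0.06 ± 0.41, adjusted p = 0.964). *Il1rn* was 9823, 6952 and 7957 and passed only with the replicate block (log2 fold change 0.62, adjusted p = 0.359 without and 0.0465 with the block, under which 7.35% of tested genes changed). The 2 highest *Il6* means belonged to Lapatinib (863, 1536 and 860) and Omipalisib (1072, 954 and 1173), in which all samples were above the DMSO range. Neither passed without the block (log2 fold change 1.03 ± 0.43, adjusted p = 0.0684, and 1.05 ± 0.43, adjusted p = 0.06), and with it the adjusted p for Lapatinib was 0.0378, in a comparison where 36.3% of tested genes changed. Over all tested genes and CKIs, all 3 samples were above the DMSO range in 4.52% of comparisons. That share is not given for Lapatinib and Omipalisib alone.

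Some CKIs moved a member outside the range of all DMSO samples without a call. *Il1b* was 2313, 2783 and 2458 with the ERK inhibitor Ulixertinib (log2 fold change -0.62 ± 0.41, limma adjusted p = 1) and 2475, 1794 and 2506 with the PLK1 inhibitor NMS1286937 (log2 fold change -0.79 ± 0.41, adjusted p = 0.712). *Il6* was 299, 329 and 334 with Poziotinib, an ERBB inhibitor, and 300, 183 and 259 with SNS314, an Aurora kinase inhibitor. All 3 samples were below the 6 DMSO samples in 0.370% of the tested genes with Ulixertinib, 1.64% with NMS1286937, 0.472% with Poziotinib and 2.16% with SNS314. Over the 290 pairs of a member and a CKI, all 3 samples were below DMSO in 10 (3.45%, beside 2.02% over all tested genes) and above it in 8 (2.76%, beside 4.52%).

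The numbers paired the samples of 34 of the 58 comparisons, and in these the block added further calls. PH797804, a p38 inhibitor, had the lowest *Il1rn* of all conditions (3554, 2765 and 1960, log2 fold change -0.99 ± 0.34) and low *Il1b* (2280, 1422 and 1315, log2 fold change -1.25 ± 0.41). All samples were below the DMSO range for both genes. Over all tested genes and CKIs 2.02% of comparisons lay wholly below DMSO, and the share for PH797804 alone is not given. The adjusted p went from 0.116 to 0.000527 for *Il1rn* and from 0.0924 to 0.00843 for *Il1b* with the block, under which 4.46% of tested genes changed. *Il1a* passed only with the block for Apitolisib (1003, 509 and 747, adjusted p = 0.0173, 28.4% of tested genes) and for Lenvatinib, an inhibitor of VEGF receptors (651, 537 and 790, adjusted p = 0.0429, 26.0% of tested genes). With the mitochondrial share added to the block these adjusted p were 0.656 and 0.775, while both falls with PH797804 were kept. The log2 fold change of *Il1a* went from 1.04 to 0.23 ± 0.25 with Apitolisib and from 0.88 to 0.15 ± 0.25 with Lenvatinib. The summed dendritic cell markers were 56 to 71 with PH797804, below all DMSO samples (100 to 173), and 1 of the 3 tested was called lower; their part in the falls was not tested. PH797804 was the one CKI with which both the agonist *Il1b* and the antagonist *Il1rn* lay wholly below DMSO.

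Single samples decided 8 of the 12 calls. Without replicate 2 of set 2 of DMSO the 5 rises of *Il1a* and *Il1b* did not pass, with adjusted p between 0.0507 (*Il1a* with Lapatinib) and 0.116 (*Il1b* with Tofacitinib), although their log2 fold changes remained between 1.14 and 1.36. The fall of *Il1a* did not pass without replicate 1 of set 2, with an adjusted p of 0.0533 for Afatinib and 0.0771 for BGT226. It also did not pass for BGT226 without replicate 2 of set 1 (adjusted p = 0.0511), and *Il1b* with Apitolisib did not pass without replicate 3 of set 1 (adjusted p = 0.0557). The rise of *Il1b* with Tofacitinib was further lost without replicate 2 or 3 of set 1 or replicate 3 of set 2, with adjusted p of 0.0577, 0.081 and 0.059. The fall of *Il6* with Midostaurin did not pass without replicate 1 or 2 of set 1 or of set 2 (adjusted p 0.0758 to 0.0855). Of the samples numbered alike, leaving out those of all CKIs with number 2 lost 8 calls, number 1 lost 6 and number 3 lost 4.

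The levels of CKIs with one designated target class are given side by side, since their concentrations differ and were for some set on another kinase (Apitolisib, for example, was used against JAK1). Among the 6 CKIs directed at ERBB receptors, mean *Il1b* was 1178 ± 339 (SD, n = 3) with Afatinib and 9726 ± 1528 with Lapatinib, and the other means were 4181 ± 574 with AC480, 3813 ± 1976 with Neratinib, 3543 ± 1627 with Poziotinib and 3361 ± 1339 with Mubritinib. Among the 7 directed at PI3K or mTOR, *Il1b* means were 1391 ± 523 with BGT226, 3585 ± 2516 with AZD8186, 3663 ± 604 with Omipalisib, 5215 ± 1882 with AZD2014, 5432 ± 1866 with TG100115, 7813 ± 3285 with PF04691502 and 9272 ± 2306 with Apitolisib. The *Il1rn* means of the same 7 were 12075 ± 3754, 4827 ± 2668, 17319 ± 2909, 4179 ± 1055, 5650 ± 2190, 5946 ± 1687 and 4079 ± 1087. Both CKIs with a called rise of *Il1rn* were in this class. For *Il6*, AZD2014 had the lowest level of the class (449, 139 and 250, log2 fold change -1.03 ± 0.43, adjusted p = 0.0824) and Omipalisib the highest.

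The 6 JAK inhibitors gave mean *Il1b* values of 9454 ± 3082 with Tofacitinib, 6997 ± 3403 with Pacritinib, 6090 ± 1712 with Filgotinib, 5278 ± 680 with BMS911543, 4904 ± 1103 with Momelotinib and 3566 ± 557 with Ruxolitinib. The corresponding *Il6* means were 715.7 ± 84.1, 533.3 ± 108, 333 ± 13.2, 643.7 ± 265, 326.7 ± 133 and 360.7 ± 179. In the fit without a block Tofacitinib was the one of the 6 with a called member. Filgotinib had the second lowest *Il1rn* of all conditions (4240, 2831 and 2981), with a log2 fold change of -0.69 ± 0.34 and an adjusted p of 0.134 (0.00673 with the block, in a comparison whose numbers did not pair the samples).

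Among the MAP kinase and IKK inhibitors no member was called in the fit without a block. The p38 inhibitors Talmapimod, Losmapimod and VX702 had mean *Il1b* of 2955 ± 821, 3493 ± 2103 and 4435 ± 3125, beside 1672 ± 529 with PH797804. With the ERK inhibitors Ulixertinib and GDC0994 it was 2518 ± 241 and 3804 ± 1590, with the MEK inhibitors Pimasertib, Refametinib and Selumetinib 4531 ± 1494, 5108 ± 1591 and 4688 ± 2761, with the JNK inhibitor Tanzisertib 3382 ± 699 and with the IKK inhibitor IMD0354 4804 ± 3633. *Il6* was 375.3 ± 34.8 with PH797804, 589.3 ± 144 with Ulixertinib, 542.3 ± 335 with Pimasertib, 417.3 ± 166 with Tanzisertib and 753.3 ± 649 with IMD0354. The samples of IMD0354 and VX702 were spread over more than the DMSO range for *Il1b*.

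The difference of 2 transcripts within a sample does not depend on how the sample was scaled, so it was tested separately. In DMSO, log2 *Il1rn* minus log2 *Il1b* was 0.46 ± 0.24 (SD, n = 6). It was 3.04, 3.10 and 3.27 with BGT226, 2.52, 2.23 and 2.40 with Afatinib and 2.38, 2.05 and 2.29 with Omipalisib. These samples were far above the highest DMSO value of 0.77, and the replicates were close together, with an SD of 0.12 for BGT226, 0.14 for Afatinib and 0.17 for Omipalisib. At the other end stood Apitolisib (-1.10, -0.90 and -1.56), Filgotinib (-0.77, -1.29 and -0.47) and Lapatinib (-0.44, -0.47 and -0.46), all below the lowest DMSO value of 0.04. The difference from DMSO ran from -1.64 with Apitolisib to 2.68 with BGT226. Each of these 6 CKIs had the smallest p that the 84 assignments of 3 and 6 samples allow, 0.0119 (two-sided exact permutation test). An unadjusted p under 0.05 was reached by 19 of 58 CKIs, 5 with a higher and 14 with a lower difference, and after adjustment over the 116 tests none passed, the lowest adjusted p being 0.0767. Since no p can go below 0.0119, larger differences with the CKIs at this floor would not have lowered that value. The adjustment therefore cannot weigh their size. The 84 assignments let all samples exchange. When exchanged within replicate numbers only, the exact test cannot go below 0.037, and 14 CKIs had a p under 0.05 for this difference.

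Log2 *Il6* minus log2 *Il1b* was -2.92 ± 0.37 in DMSO. Midostaurin gave the lowest values (-4.63, -4.96 and -4.71), followed by AZD2014 (-4.00, -4.62 and -4.32), Filgotinib (-4.41, -4.33 and -3.69), PF04691502 (-3.84, -4.09 and -3.98) and Momelotinib (-3.69, -4.29 and -3.88). All of these samples were below the lowest DMSO value of -3.37. The highest values were those of Afatinib (-1.09, -1.67 and -0.89), BGT226 (-1.90, -1.59 and -1.52) and Omipalisib (-1.86, -2.11 and -1.34), above the highest DMSO value of -2.34. These 8 CKIs again had a p of 0.0119. In all, 15 of 58 CKIs had an unadjusted p under 0.05, 6 higher and 9 lower, and none passed the adjustment over 116 tests (lowest adjusted p 0.0767, two-sided exact permutation test). In single CKIs the 3 samples thus lay outside the DMSO samples for this difference, in both directions. The falls of *Il1b* with Afatinib and BGT226, described above, enter into it. How often other pairs of genes gave such differences was not examined, here or for *Il1rn* and *Il1b*. No CKI was called after adjustment, which again cannot weigh the size of differences at the floor of 0.0119.

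**Figure D3:**
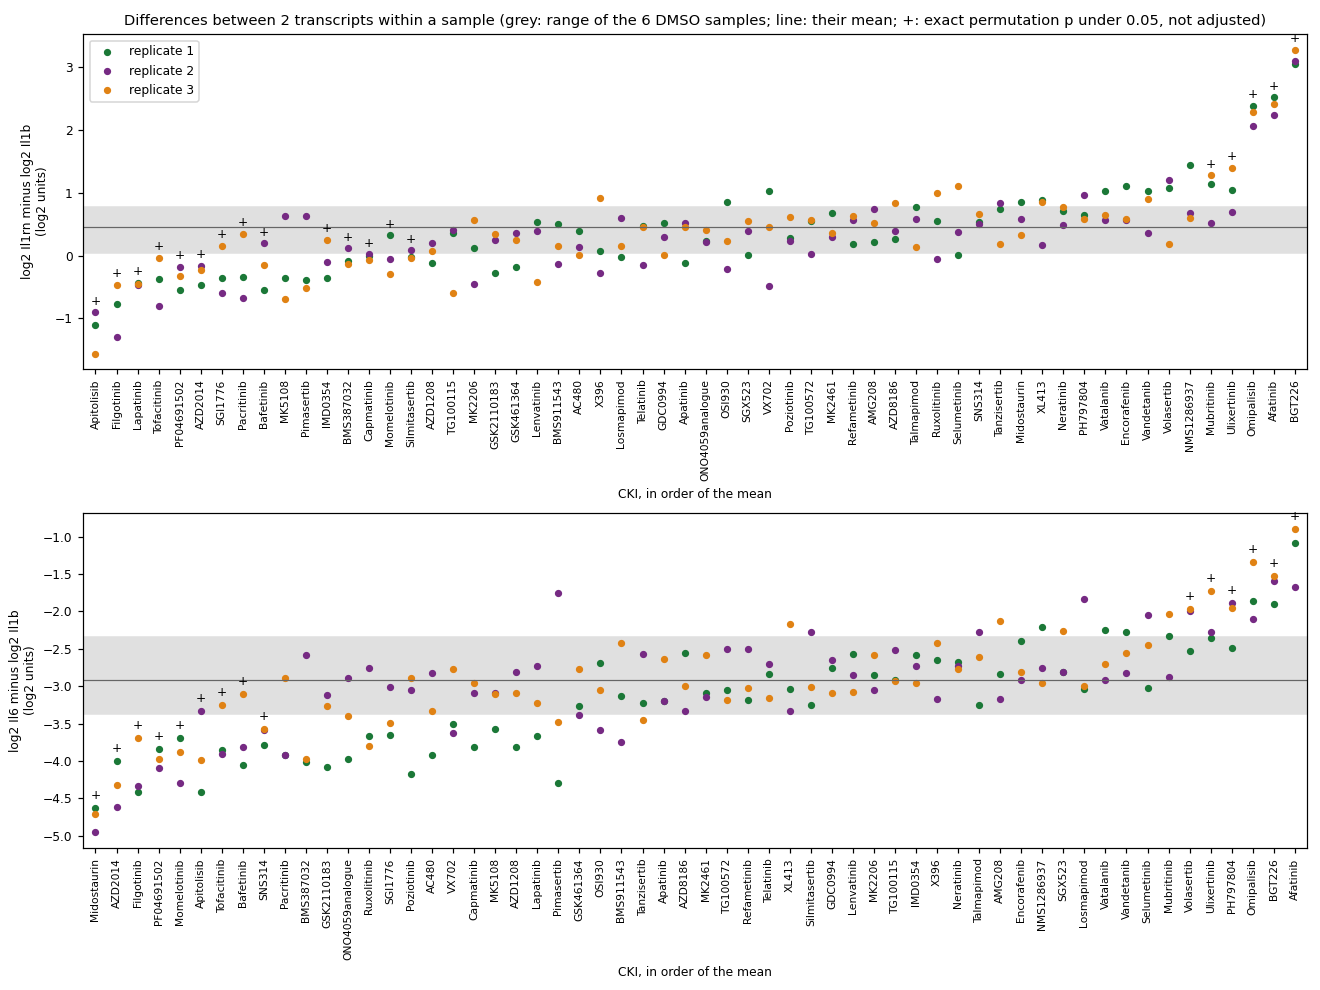
Differences in log2 units between *Il1rn* and *Il1b* (top) and between *Il6* and *Il1b* (bottom) within each CKI sample, with the CKIs in order of their mean. Points are samples coloured by replicate number, the grey band and the line are the range and mean of the 6 DMSO samples, and a plus sign marks an unadjusted exact permutation p under 0.05, which 19 and 15 CKIs reached.

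Over the 58 CKI means, the levels of *Il1a* and *Il1b* were the most alike of the 10 pairs of members (Spearman 0.81, Pearson 0.88, and 0.84 without the 2 CKIs farthest from the median of *Il1a*). Within the samples of replicate number 1, 2 and 3 the Spearman value was 0.86, 0.84 and 0.84. For *Il1rn* and *Il1b* the Spearman value was 0.33 (Pearson 0.10, and 0.36 without the 2 farthest CKIs), with 0.24, 0.54 and 0.38 within the 3 replicate numbers. For *Il6* it was 0.57 with *Il1rn* (0.70, 0.46 and 0.60 within the numbers) and 0.39 with *Il1b* (0.43, 0.48 and 0.51), so the order of these values was not the same in every replicate number. *Il18* had values between 0.39 (with *Il1rn*) and 0.58 (with *Il6*). These are descriptions over CKIs whose samples share a scaling, and genes measured in one library also share its error.

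**Figure D4:**
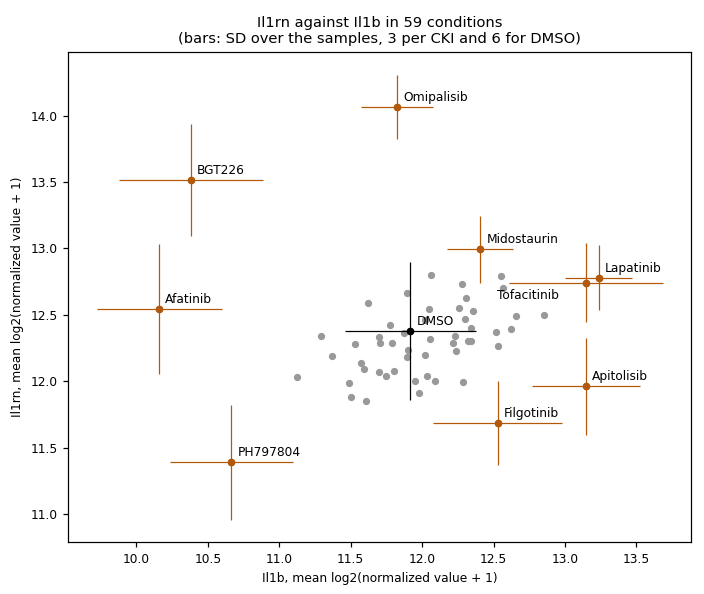
Mean log2(normalized value + 1) of *Il1rn* against that of *Il1b* in the 59 conditions, with SD bars over the samples for DMSO and 9 named CKIs. Omipalisib and BGT226 lie above the other conditions, Lapatinib, Tofacitinib and Apitolisib to the right, Afatinib to the left at a middle level of *Il1rn*, and PH797804 is low in both.

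The genes whose mean levels over the 59 conditions were most like each member were named by Spearman correlation. For *Il1a* they were *Gm14023* (0.89), *Tnfsf4* (0.83), a ligand of the TNF family, and *Nab1* (0.80), a corepressor of EGR factors. *Gm14023* is a non-coding RNA on the plus strand of chromosome 2 at 129297370 to 129307826, which overlaps *Il1a* on the opposite strand. Whether reads were counted by strand is not stated, and without it reads of the 2 genes cannot be told apart. For *Il1b* the most alike were *Ccl24* (0.83), a chemokine for eosinophils, *Cd14* (0.79), the LPS co-receptor, and *Serpinb2* (0.77), an inhibitor of plasminogen activators. For *Il1rn* they were *Procr* (0.78), the protein C receptor, *Car13* (0.74), a carbonic anhydrase, and *Sphk1* (0.71), a sphingosine kinase. For *Il6* the 3 were *Ifit1* (0.87) and *Igtp* (0.86), both interferon-stimulated genes, and *Gm8995* (0.86). For *Il18* they were *Psma4* (0.80), a proteasome subunit, *Pop4* (0.80), a subunit of RNase P, and *Ifi27l2a* (0.79), an interferon-stimulated gene.

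The rest of the IL-1 and IL-6 pathway was read from a list of 64 genes, of which 60 were in the table and 53 were tested. With Afatinib 18 of the 53 changed, 2 higher and 16 lower, or 34.0% where 21.9% of all tested genes changed. The receptors of IL-6 were among the falls: *Il6ra*, the ligand-binding chain, was 103, 125 and 152 against a DMSO mean of 473.8 ± 200 (log2 fold change -1.80 ± 0.32, adjusted p = 7.9e-06), and *Il6st*, which encodes gp130, had a log2 fold change of -1.07 ± 0.20. *Il1r1* and *Il1rap*, the signalling receptor of IL-1 and its accessory chain, fell by 1.53 and 0.79 on the log2 scale, although 1 of the 3 *Il1rap* samples (74, 49 and 183) was within the DMSO mean ± SD (157.8 ± 46.2). Of the 16 transcription and mRNA decay regulators 8 fell and 0 rose, among them *Irf4* (log2 fold change -1.81 ± 0.44), *Hif1a* (-1.30 ± 0.21) and *Zfp36*, which encodes a protein that destabilises cytokine mRNAs (-1.16 ± 0.21). The adaptor genes *Traf6* and *Irak3*, the latter an inhibitory member of the IRAK family, fell by 0.79 and 0.46, as did *Capn2*, a calpain subunit, by 0.51, and *Clcf1* by 0.57. The 2 rises were those of *Sigirr*, an inhibitory receptor of the family (1.07 ± 0.41), and *Osm*, a cytokine of the IL-6 family (0.87 ± 0.32). The median log2 fold change of the list was -0.14, beside 0.03 over all tested genes.

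With BGT226 23 of the 53 pathway genes changed, 14 higher and 9 lower, or 43.4% where 30.4% of all tested genes changed. The median log2 fold change was 0.23, beside 0.21 over all tested genes. Of the 7 IL-1 family receptors and decoys tested, 3 rose and 0 fell: the decoy receptor *Il1r2* was 56, 72 and 39 against 18.5 ± 7.89 in DMSO (log2 fold change 1.71 ± 0.38, adjusted p = 0.00013), and *Il1rl2*, the receptor of IL-36, and *Sigirr* rose by 1.21 and 1.08. *Osm* was 192, 171 and 131 against 36.8 ± 13.4 (log2 fold change 2.18 ± 0.32). *Il33*, an IL-1 family alarmin, was 14, 2 and 4 against 28.5 ± 22.4 (log2 fold change -1.98 ± 0.51, adjusted p = 0.0013), and *Il27* and *Clcf1* fell by 0.92 and 0.50. The inflammasome genes moved in both directions, with *Nlrc4*, *Casp4* and *Nlrp3* higher (1.29, 1.20 and 0.91) and *Pycard*, which encodes the adaptor ASC, lower (-0.57 ± 0.10). In the proximal pathway *Myd88* fell by 0.66, whereas *Irak2* and *Tollip* rose by 0.71 and 0.40. *Atf3*, a stress-induced repressor, had one of the largest changes of the list, at 26584, 28999 and 26396 against 6754 ± 1076 (log2 fold change 2.03 ± 0.13). *Hif1a*, *Bcl3* and *Nfkbiz*, the latter 2 encoding atypical IκB proteins, fell by 0.73, 0.69 and 0.49, and *Irf4* and *Rc3h1* rose by 1.15 and 0.69.

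Lapatinib changed 14 of the 53 pathway genes, 9 higher and 5 lower, or 26.4% beside 23.3% of all tested genes, and Tofacitinib 7, 4 higher and 3 lower, or 13.2% beside 9.88%. *Il1r2* rose with both (log2 fold change 1.27 ± 0.38 with Lapatinib and 1.51 ± 0.38 with Tofacitinib). With Lapatinib the caspase genes *Casp1* and *Casp4* rose by 1.32 and 1.14, *Sigirr* by 1.05, *Irak1* by 0.99, *Tab2* by 0.89, *Osm* by 0.86, *Rc3h1* by 0.68 and *Nfkb1* by 0.31. The falls were those of *Hif1a* (0.78), *Irak3* (0.48), *Tollip* (0.41), *Atf3* (0.38) and *Ninj1*, which acts in plasma membrane rupture (0.30). With Tofacitinib the falls were those of *Arid5a*, whose product stabilises *Il6* mRNA, from 2750 ± 509 to 1449 ± 327 (log2 fold change -0.93 ± 0.19, adjusted p = 0.00278), *Jun* (-0.75 ± 0.26) and *Atf3* (-0.75 ± 0.13). *Zc3h12a*, which encodes the nuclease Regnase-1, rose by 0.55, *Gsdme* by 0.62 and *Nfkb1* by 0.35. When the mitochondrial share was in the fit with the block, 1 of the 53 genes was called with Lapatinib and 3 with Tofacitinib, but 21 with Afatinib and 29 with BGT226.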

How the data were processed

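PolyA RNA of 180 BMDM samples was made into libraries by SMART-seq2. Per the methods and the submitters' processing notes, the authors mapped reads to mm10 with TopHat2 2.1.1, removed blacklisted regions (bedtools 2.29.2), counted reads on the exons of curated RefSeq genes, and scaled each sample on invariant genes. The deposited values are these normalized values rounded to whole numbers, so they are treated as a score and not as counts. The authors tested them with DESeq2 in R 3.6.2. No count test was run here, because depth before scaling is unknown. Scaling on invariant genes assumes that these did not move with a CKI. Scaling again by the median of ratios moved the median over all genes by more than 0.1 log2 units in 18 of 58 CKIs (from -0.20 to 0.04).

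Columns were matched to samples by name, and 0 were left over. Values were tested as log2(normalized value + 1) for the 12714 of 45070 genes with a mean of at least 10, in 1 limma fit of 59 groups with a variance trend, and p-values were adjusted by Benjamini-Hochberg over these genes within each CKI (threshold 0.05). Fold changes are on this scale. Within-sample differences were compared by two-sided exact permutation tests. The fit was also run on simulated data with known changes. These were drawn independently for each sample, with a spread setting shared by all genes and no replicate effect. The simulation therefore does not test the fit at the spread of the members. The methods name 3 independent biological replicates. Same-numbered samples deviated together (every pair's correlation over genes above 0.1) in 34 comparisons, where the block is given beside the result if it changes a call. The correlation was between -0.52 and 0.73 over all pairs, with a median of 0.35, and 0.51, 0.24 and 0.32 between the DMSO sets. The fits were made with limma 3.58.1 in R 4.3.3, and all other steps with Python 3.11.15 (pandas 2.3.3 for tables, NumPy 2.4.6 and SciPy 1.17.1 for statistics, matplotlib 3.10.9 for plots).

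Named CKIs are all those with an adjusted p under 0.05 for a member, those of 7 target classes placed side by side, and, added after their values were seen, the ERBB class, CKIs whose samples all lay outside the DMSO range, and those called only with the block, with or without the mitochondrial share. Named pathway genes are at most 3 for each list and direction, in CKIs that changed 2 or more members. Genes most like a member are the 3 with the highest Spearman correlation. The members, lists, motifs and tests were chosen with earlier results of these data known. Of 6 other IL-1 family ligands listed, 2 were in the table. Target classes follow the clinical annotations of the CKIs, which are not always the kinase that set the concentration. The alternatives were other pseudocounts and filters, another scaling, each DMSO set alone, other fits, the replicate block with and without the mitochondrial share, and leaving out samples.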

Additional observations from a re-analysis of the deposited data

How the results depend on the processing

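None of the 12 calls turned its direction under any alternative. Of these calls, 12 were kept with pseudocounts of 0.5 and 10, with a filter at a mean of 50 and with the replicate block, 11 with scaling by the median of ratios (*Il1b* with Tofacitinib was lost, adjusted p = 0.0903) and without the variance trend, 9 with only the groups compared, 8 without a filter, 7 with the block and the mitochondrial share, and 5 with either DMSO set alone. The number of CKIs that changed *Il1a* was 4, and became 0 with DMSO set 1 only, 1 with set 2 only, 2 with only the groups compared and 7 with the block. With the block and the mitochondrial share the counts of *Il1a* and *Il1b* were again 4 and 5, but all were falls: the 5 rises were lost, and *Il1a* and *Il1b* with Pimasertib and Volasertib and *Il1b* with PH797804 were gained. *Il1b* with Pimasertib reversed in that fit (log2 fold change -0.99). Leaving out samples gave uncalled log2 fold changes on both sides of 0 here, from -0.58 to 0.14 (*Il1a*) and -0.066 to 0.42 (*Il1b*) with Pimasertib, and from -0.93 to 0.051 and -0.99 to 0.013 with Volasertib. For *Il1b* the count of 5 became 3 without a filter, 3 with DMSO set 1 only and 2 with set 2 only. For *Il1rn* the count of 2 became 5 with the block and 5 with the block and the mitochondrial share. For *Il6* the count of 1 became 0 without a filter, 0 with DMSO set 1 only, 0 with set 2 only, 0 without the variance trend, 3 with only the groups compared, 4 with the block and 2 with the block and the mitochondrial share. For *Il18* it was 0 in every fit. Leaving out samples gave 0 to 4 CKIs for *Il1a*, 2 to 5 for *Il1b*, 2 to 4 for *Il1rn*, 0 to 2 for *Il6* and 0 for *Il18*.

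The pathway genes changed with Afatinib (18) became 10 with DMSO set 1 only and 5 with only the groups compared. Those changed with BGT226 (23) became 15 with DMSO set 2 only and 13 with only the groups compared. Those changed with Lapatinib (14) became 8 without a filter, 0 with DMSO set 1 only, 4 with set 2 only, 5 with only the groups compared, 22 with the block and 1 with the block and the mitochondrial share. Those changed with Tofacitinib (7) became 2 with DMSO set 1 only, 3 with set 2 only, 0 with only the groups compared, 17 with the block and 3 with the block and the mitochondrial share. Leaving out samples gave 6 to 18, 12 to 24, 0 to 21 and 0 to 13 genes. The numbers of CKIs with a shifted difference of *Il1rn* and *Il1b* (19) and of *Il6* and *Il1b* (15) were 11 to 23 and 9 to 14 without single samples, and 14 and 15 when permuted within replicate numbers (replicate block). With 1 DMSO set, 3 against 3 samples cannot reach a p under 0.05, so this alternative gave no count. The causes of these changes were not tested, apart from the smaller number of samples where samples or a DMSO set were left out.

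In comparisons where the numbers did not pair the samples, the block added calls of *Il6* with Omipalisib (adjusted p = 0.0329) and AZD2014 (0.0473), *Il1rn* with Filgotinib (0.00673), and *Il1a* and *Il1b* with PF04691502 (0.0415 and 0.0252). Normalized values carry no depth, and at an SE of 0.30 to 0.43 log2 units per comparison changes under about 1 log2 unit were mostly not detectable.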
